A study of Homo sapiens with 8 samples.

Results

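Integrin genes of epithelial cells were examined for binding of the TEAD factors and their coactivators YAP and TAZ. The genes were ITGA2, ITGAV, ITGA6, ITGB4 and ITGB1, and the peaks were those whose centre lay within 100 kb of the gene's transcription start site (hg19) in any of the 5 deposited peak lists. This gave 48 peaks of 51828 in all: 35 of 38186 TEAD1 peaks, 12 of 12188 TEAD4 peaks, 1 of 847 HA-YAP5SA peaks, and none of the 454 YAP or 153 TAZ peaks. The series profiled HuCCT1, an established human cholangiocarcinoma (bile duct cancer) cell line, by chromatin immunoprecipitation and sequencing, with 8 libraries and 1 library per antibody or control. The 5 libraries used were precipitated with antibodies to YAP, to TAZ (the WWTR1 product), to TEAD1, to TEAD4, and through an HA tag on YAP5SA, a YAP form in which serines phosphorylated by the LATS kinases are replaced. The labels give all groups as the same line and name no treatment, and they do not say whether cells other than the HA-YAP5SA sample carried the tagged protein. The other 3 libraries, titled input, IgG and GFP, were not analysed here.

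Integrins are surface receptors made of an alpha and a beta subunit that hold cells to the extracellular matrix and signal through kinases such as FAK and Src. In epithelia, including bile ducts, they bind laminins and collagens of the basement membrane. Adhesion and tension on the matrix are known to act on YAP and TAZ. These coactivators lack a DNA-binding domain and are brought to chromatin chiefly by TEAD proteins. ITGB1 encodes the beta subunit shared by many receptors. ITGA2 encodes a partner of the ITGB1 product in a collagen receptor, and ITGAV a partner in receptors for vitronectin and fibronectin that also release latent TGF-beta. ITGA6 encodes a laminin-binding subunit that pairs with the products of ITGB1 or ITGB4, and the receptor with the ITGB4 product anchors epithelial cells at hemidesmosomes.

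Binding was measured and expression was not, so the label epithelial rests on the known roles of the genes. Every value below comes from 1 library, so no difference between loci or lists has a replicate check and no test was made. How deeply each library was sequenced is unknown. The score is the authors' own value for each peak on a scale that is not stated. It is therefore given as a rank or a percentile within its own list, where 100 is the highest score. Intervals are exact at 95% and cover counting error only. They treat peaks as independent, which peaks of the same locus may not be. Distances are from the start site to the peak centre, upstream or downstream in the direction of transcription. ITGB1 is on the reverse strand and the other genes are on the forward strand.

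All 5 loci held TEAD1 and TEAD4 peaks, and only the ITGB4 locus held an HA-YAP5SA peak. ITGA2 had 10 TEAD1 peaks (exact Poisson interval 4.8 to 18.4), ITGA6 and ITGB4 had 7 each (2.81 to 14.4), ITGB1 had 6 (2.2 to 13.1) and ITGAV had 5 (1.62 to 11.7). These intervals overlap for every pair of loci, so they do not resolve the order of the TEAD1 counts. They take peaks as placed independently, and no pair of counts was compared by a test. ITGB4 had 5 TEAD4 peaks (1.62 to 11.7), ITGA2, ITGA6 and ITGB1 had 2 each (0.242 to 7.22) and ITGAV had 1 (0.0253 to 5.57). The TEAD4 intervals overlap as well.

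**Figure D1:**
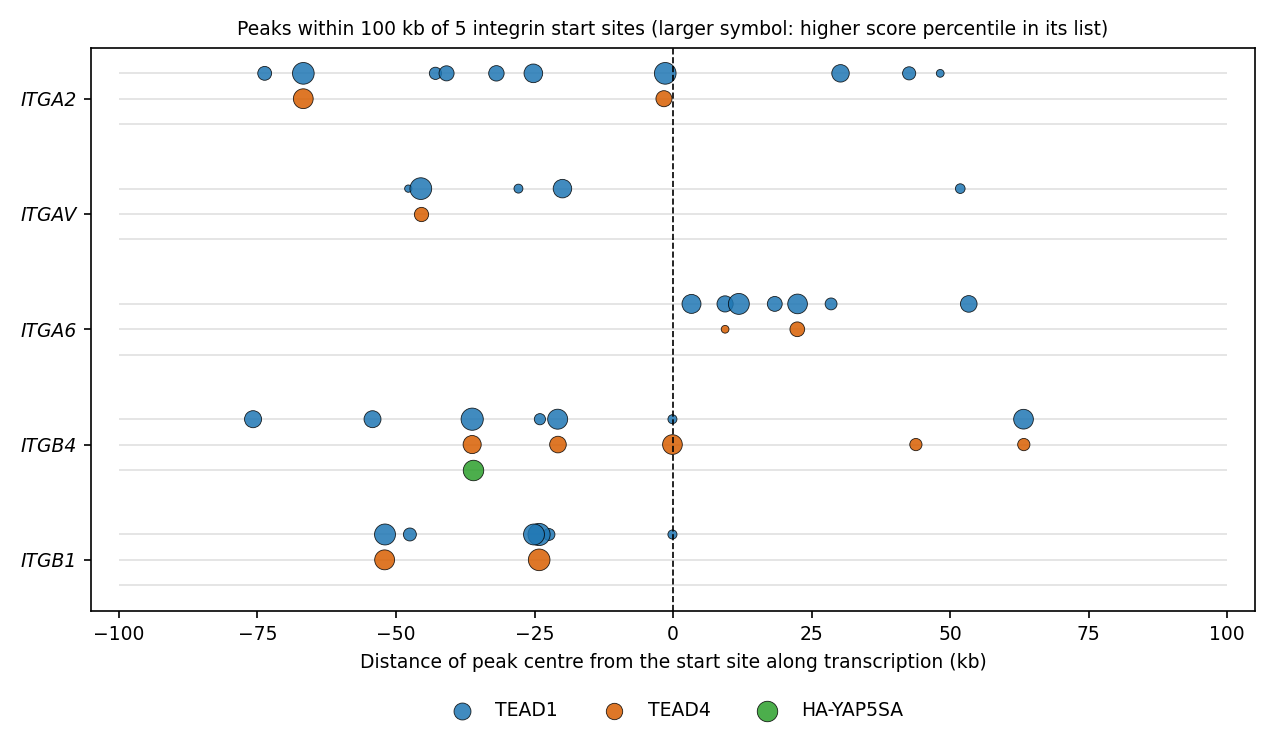
Position of the 48 peaks relative to the 5 start sites (x axis, kb along transcription; dashed line, start site), with 1 row each for TEAD1, TEAD4 and HA-YAP5SA at each gene and symbol size growing with the score percentile within the list. TEAD1 peaks lie only downstream at ITGA6 and only upstream at ITGB1, and the single HA-YAP5SA peak lies 36.2 kb upstream of ITGB4.

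To set these counts against the rest of the genome, chromosomes 1 to 22 and X were cut into 14716 tiles of 200 kb, the width of a locus window. A tile held 2.58 TEAD1 peaks on average and a median of 2, or 3 among the 10225 tiles with any TEAD1 peak. Each of the 5 loci lay above these values, at 1.94 (ITGAV) to 3.88 (ITGA2) times the mean. TEAD1 peaks were unevenly spread, since 30.5% of tiles held none and the fullest held 31. The Poisson intervals do not allow for this. At least 10 TEAD1 peaks, as at ITGA2, occurred in 3.34% of tiles. At least 7, as at ITGA6 and ITGB4, occurred in 10.3%, at least 6 in 14.7% and at least 5 in 20.8%. For TEAD4 the mean was 0.824 per tile, and at least 5 peaks, as at ITGB4, occurred in 2.76% of tiles. At least 2 TEAD4 peaks occurred in 20.1% and at least 1 in 40.1%. Tiles include gene-poor sequence, and windows set on other genes were not analysed here, so these shares do not say how integrin genes stand among genes. The genes were also chosen with earlier results of these data known, so the shares are no test of an excess.

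**Figure D2:**
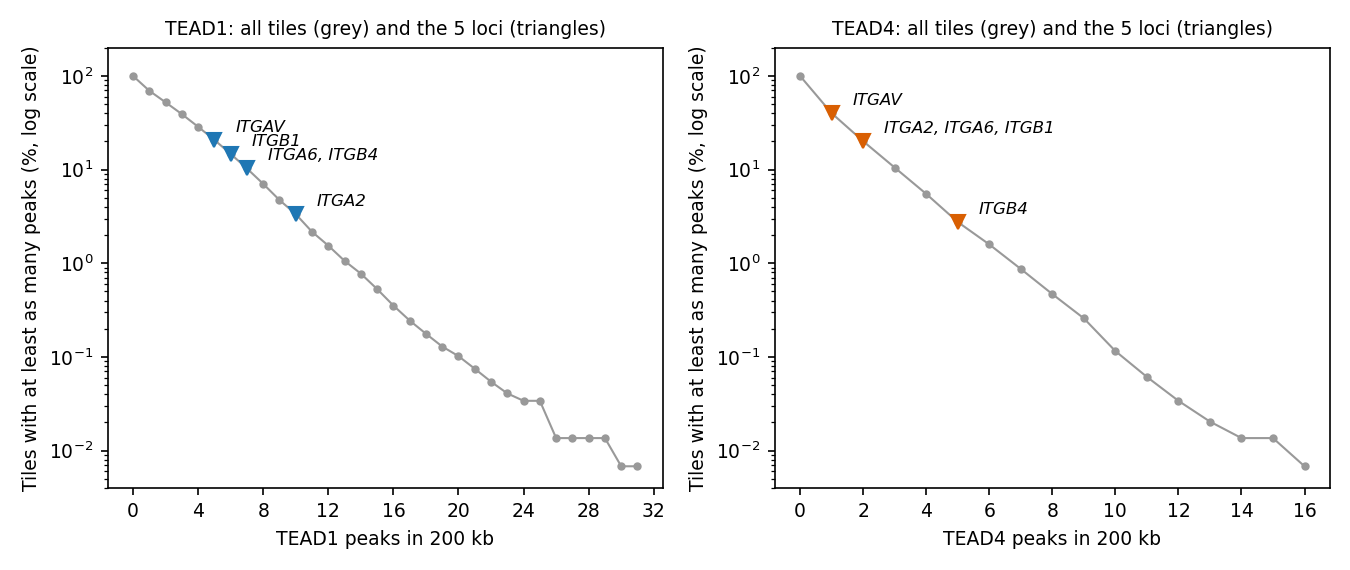
Percent of 200 kb tiles (y axis, log scale) that hold at least the number of TEAD1 (left) or TEAD4 (right) peaks on the x axis, with the 5 loci as triangles. ITGA2 lies where 3.34% of tiles hold as many TEAD1 peaks and ITGB4 where 2.76% hold as many TEAD4 peaks.

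The TEAD1 peaks at these genes spread over most of the range of their list, up to percentile 92.3. The 35 peaks had a median percentile of 47.1. Of them, 16 (45.7%, interval 28.8 to 63.4%) were at or above the list's median score, against 50% of the whole list by construction. The top decile held 2 of the 35 (5.71%, 0.7 to 19.2%), beside 10% of the list, and the lowest decile held 6 (17.1%, 6.56 to 33.6%). Each of these intervals includes the share of the whole list. The highest TEAD1 percentile was 92.3 at ITGB4, 92 at ITGB1, 88 at ITGAV, 87.6 at ITGA2 and 80.8 at ITGA6. ITGAV had the lowest median percentile, 8.8, since 3 of its 5 peaks were in the lowest decile. The medians at the other loci were 38 (ITGA2), 47.1 (ITGA6), 50 (ITGB4) and 52.7 (ITGB1), with ranges that overlap throughout.

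**Figure D3:**
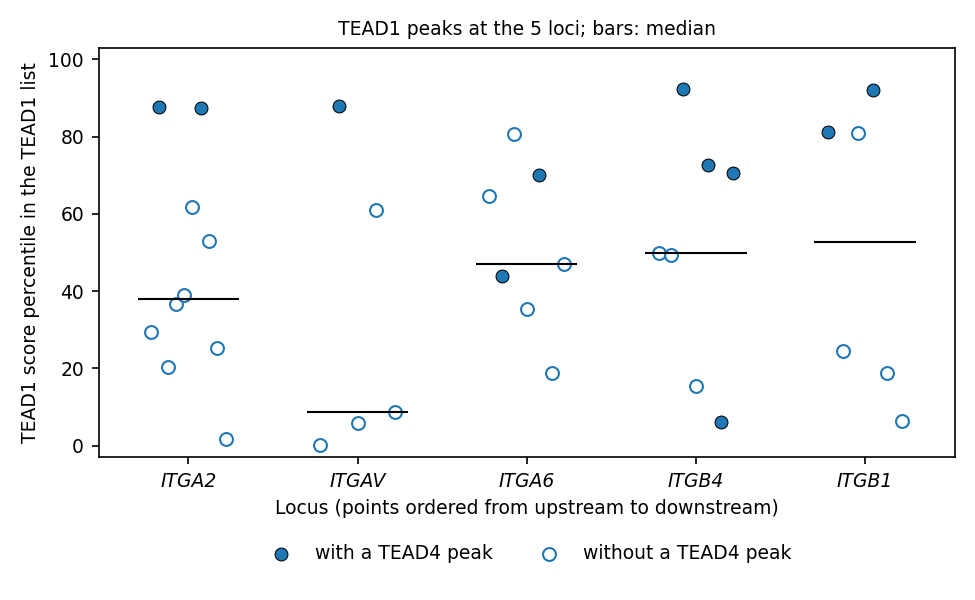
TEAD1 score percentile (y axis) of each of the 35 TEAD1 peaks by locus (x axis), filled where a TEAD4 peak overlaps, with a bar at the median of each locus. At ITGA2, ITGAV, ITGB4 and ITGB1 the highest point is filled, at ITGA6 it is open, and ITGAV has the lowest median, 8.8.

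TEAD4 lay on TEAD1 at these genes at a share near that of the whole list, which is no result about the integrin genes. Of the 35 TEAD1 peaks, 11 (31.4%, interval 16.9 to 49.3%) overlapped a TEAD4 peak by at least 1 bp, beside 30.6% of the whole TEAD1 list. In the other direction, 11 of the 12 TEAD4 peaks (91.7%, 61.5 to 99.8%) overlapped TEAD1, beside 97.1% of the TEAD4 list. By locus the share of TEAD1 peaks with TEAD4 was 4 of 7 at ITGB4 (57.1%, 18.4 to 90.1%), 2 of 6 at ITGB1 (33.3%, 4.33 to 77.7%), 2 of 7 at ITGA6 (28.6%, 3.67 to 71%), 2 of 10 at ITGA2 (20%, 2.52 to 55.6%) and 1 of 5 at ITGAV (20%, 0.505 to 71.6%). All of these intervals include 30.6%. The 11 TEAD1 peaks with TEAD4 had a median percentile of 81.2 and a median width of 650 bp. The 24 without had a median percentile of 32.5 and a median width of 490.5 bp. The same split of the whole list gave medians of 83.2 and 36.2 in percentile and 672 and 508 bp in width. At the 11 shared sites the TEAD1 and TEAD4 centres were 1.5 to 231.5 bp apart, with a median of 25 bp, beside 43.5 bp over all shared sites.

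The coactivator lists gave 1 peak. Of the 35 TEAD1 peaks, 1 (2.86%, interval 0.0723 to 14.9%) overlapped HA-YAP5SA, beside 2.06% of the TEAD1 list. Among the 12 TEAD4 peaks it was also 1 (8.33%, 0.211 to 38.5%), beside 6.28% of the TEAD4 list. The HA-YAP5SA peak met both TEADs, as did 95.2% (TEAD1) and 92.4% (TEAD4) of its list, and did not meet YAP, which 6.49% of its list did. No TEAD1 peak at the loci overlapped YAP, beside 0.21% of the TEAD1 list, and no TEAD4 peak did, beside 0.624% of the TEAD4 list. A count of 0 among 35 allows a share of up to 8.57% when 0 is taken to allow 3 peaks, and the exact interval reaches 10%. Tiles of the same width held 0.0571 HA-YAP5SA, 0.0255 YAP and 0.0068 TAZ peaks on average. With an even spread, 5 such windows would hold 0.285, 0.127 and 0.034. The spread was not even. No YAP peak lay in 99.1% of tiles and no TAZ peak in 99.7%, while the fullest tiles held 36 and 16. Most windows would therefore hold none, so 0 YAP and TAZ peaks in 5 windows says little about these loci. Binding below the authors' threshold was not detectable.

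The ITGB4 locus (start site chr17:73717516) was the one with peaks of 3 lists at a single site. That site lay 36.2 kb upstream of the start. Its TEAD1 peak (chr17:73680946-73681595) ranked 2931 of 38186 with a score of 724, the highest TEAD1 rank at any of the 5 loci. Its TEAD4 peak (chr17:73681022-73681505) ranked 5145 of 12188 with a score of 186. Its HA-YAP5SA peak (chr17:73681199-73681480) ranked 197 of 847 with a score of 180, at percentile 76.9. Over the whole list, 6.09% of TEAD1 peaks within 2 percentile points of this one carried HA-YAP5SA (interval 4.94 to 7.41%) and 95.2% carried TEAD4. By gene order in RefSeq (GRCh38.p14), SAP30BP is the coding gene next to ITGB4 on the upstream side and GALK1 on the downstream side, and the peaks were not assigned to any of the 3 genes.

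At the ITGB4 start site itself, TEAD4 stood much higher in its list than TEAD1 did in its own. The TEAD4 peak that covers the start (chr17:73717180-73717651) reached from 336 bp upstream to 135 bp downstream, had a score of 243 and ranked 3604 of 12188, at percentile 70.4. The TEAD1 peak there (chr17:73717082-73717746) had a score of 86.46 and ranked 35826 of 38186, at percentile 6.18. The lowest score in the TEAD1 list was 80, so this peak was called near the floor of the list, in 1 library. The centres of the TEAD4 and TEAD1 peaks were 1.5 bp apart. The difference, 64.3 percentile points, ranked first among all 11668 TEAD1 peaks with a TEAD4 peak, ahead of 63 and 57.2 points for the next sites. Over all these shared sites TEAD4 had the lower percentile at 93.2%, with a median difference of -23.6 points. The shared sites made up 97.1% of the TEAD4 list but 30.6% of the TEAD1 list, where their median percentile was 83.2. That direction therefore follows largely from the make-up of the lists. At the other 10 shared integrin sites the TEAD4 percentile was also the lower, by 4.98 to 56.2 points. The measure was chosen after the values were seen. When percentiles were taken only over the shared peaks of each list, the ITGB4 start ranked 9 of 11668, with a difference of 68.9 points. The TEAD1 peak was also wide for its score, at 665 bp. Only 1.94% of the 3817 TEAD1 peaks in the lowest decile were as wide, and their median was 423 bp.

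**Figure D4:**
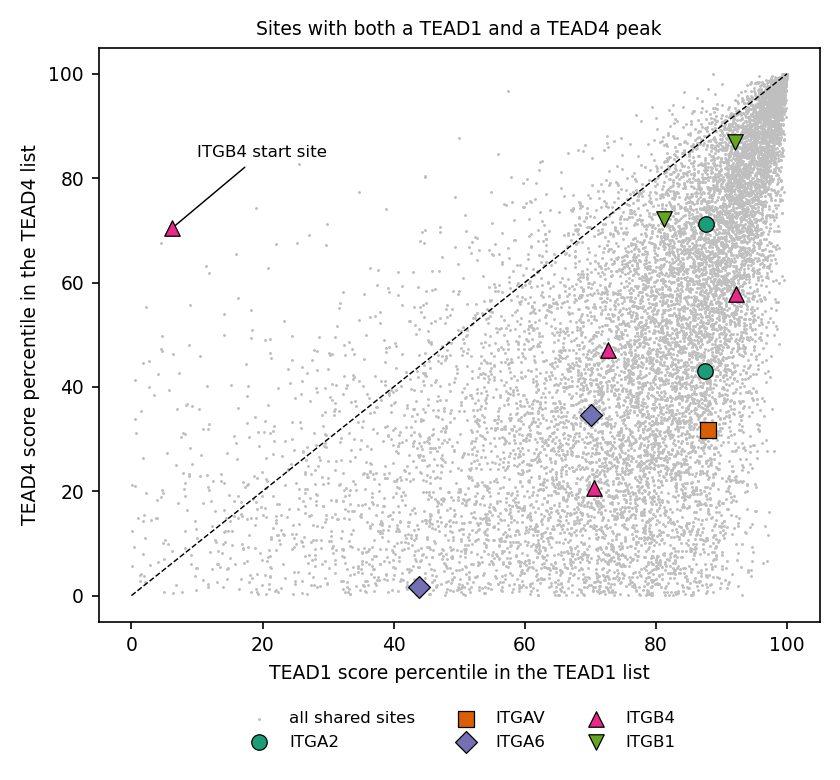
TEAD1 percentile (x axis) and TEAD4 percentile (y axis) of the 11668 sites with both peaks (grey) and of the 11 at the integrin loci (coloured), with the line of equal percentiles dashed. The ITGB4 start site, at 6.18 and 70.4, lies above the line at the upper left edge of the cloud, and the other 10 integrin sites lie below the line.

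Elsewhere at ITGB4, a site 20.8 kb upstream carried TEAD1 (percentile 72.7) and TEAD4 (47), and a site 63.3 kb downstream carried TEAD1 (70.5) and TEAD4 (20.6). A TEAD4 peak 43.8 kb downstream (chr17:73761145-73761564, percentile 20.5) overlapped no TEAD1 peak, the nearest TEAD1 centre being 19.4 kb away. It was 1 of 353 TEAD4 peaks in the whole list without TEAD1. Its score of 103.18 is above the median of 95.6 in that class. TEAD1 without TEAD4 lay 24.0, 54.2 and 75.8 kb upstream, at percentiles 15.4, 49.3 and 50. Just outside the window, the next peaks were a TEAD1 and a TEAD4 peak 123.6 and 123.5 kb downstream. Farther out, 290.9 kb upstream, an HA-YAP5SA peak (chr17:73426379-73426857, rank 19 of 847) and a YAP peak (chr17:73426455-73426698, rank 340 of 454) lay together, the nearest YAP peak to any of the 5 start sites.

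The ITGB1 locus (start site chr10:33247293) also had a TEAD1 peak on its start, without TEAD4. The peak (chr10:33247159-33247630) reached from 337 bp upstream to 134 bp downstream and ranked 35697 of 38186, at percentile 6.52, close to the percentile of the TEAD1 peak on the ITGB4 start. Its score of 86.84 was likewise near the lowest TEAD1 score, 80. Since the data place a peak on this promoter, the 250 bases before the ITGB1 start in RefSeq (GRCh38.p14, reverse strand, chr10:32958231-32958480) were searched for the TEAD recognition word GGAATG on either strand (CATTCC on the other). These are shown 5′ to 3′ with the word in capitals, above the same stretch of ITGA2 (forward strand, chr5:52989102-52989351), whose nearest TEAD1 peak ends short of this window. GRCh38 positions cannot be read against the hg19 peaks, and RefSeq's outermost start is taken here to stand for the hg19 start.
ITGB1: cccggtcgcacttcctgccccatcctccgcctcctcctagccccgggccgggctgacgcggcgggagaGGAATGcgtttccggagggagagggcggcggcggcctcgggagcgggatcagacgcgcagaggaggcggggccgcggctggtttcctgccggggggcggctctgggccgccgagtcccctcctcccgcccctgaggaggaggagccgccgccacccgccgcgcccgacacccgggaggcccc
ITGA2: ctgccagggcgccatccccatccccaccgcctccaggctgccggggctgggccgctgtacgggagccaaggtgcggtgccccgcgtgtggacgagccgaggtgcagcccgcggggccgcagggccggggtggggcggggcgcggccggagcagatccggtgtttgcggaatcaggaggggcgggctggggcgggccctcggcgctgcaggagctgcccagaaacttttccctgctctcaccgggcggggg
The ITGB1 promoter held the word once, 182 to 177 bases before the start. The 250 bases before the start hold GGAATG or CATTCC in 11.9% of the 35116 promoters in the table, so a match is common. The other 6 promoter entries of the members (1 of ITGA2, 2 of ITGA6, 2 of ITGAV and a second start of ITGB1) held neither form. The AP-1 word TGANTCA, which occurs in 6.57% of promoters and can share bases with the end of GGAATG, was in none of the 7 entries. The table matched 4 of the 5 genes, all but ITGB4. A match of letters is a description and not a measured site.

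The strongest peaks at ITGB1 lay upstream, on the side of the neighbouring gene NRP1 in RefSeq gene order, and no TEAD1 or TEAD4 peak lay downstream within 100 kb. A group of 3 TEAD1 peaks spanned 3.3 kb (chr10:33269458-33272711) about 22 to 25 kb upstream. The middle one, 24.2 kb upstream (chr10:33271205-33271734), ranked 3057 of 38186 with a score of 709. It overlapped a TEAD4 peak (chr10:33271186-33271712) that ranked 1583 of 12188 at percentile 87, the highest TEAD4 percentile at the 5 loci. The next TEAD1 peak upstream (chr10:33272053-33272711, percentile 80.9), 318 bp away from edge to edge, had no TEAD4 peak. Over the whole list, 66.2% of TEAD1 peaks within 2 percentile points of it had one (interval 63.8 to 68.6%). A second site with both factors lay 52.0 kb upstream (TEAD1 chr10:33298773-33299779, percentile 81.2, with TEAD4 at percentile 72.1). At these 2 ITGB1 sites the TEAD4 percentile was 4.98 and 9.11 points below the TEAD1 percentile, smaller gaps than at the other shared integrin sites where TEAD4 was the lower. Over all shared sites, 17.8% and 25.2% had a TEAD4 minus TEAD1 difference at least as high, so such gaps are common. The nearest HA-YAP5SA peak was 1.74 Mb away.

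The ITGA2 locus (start site chr5:52285156) combined the most TEAD1 peaks with a strong one near the start. The TEAD1 peak nearest to the start (chr5:52283206-52284301) was centred 1.4 kb upstream and ended 855 bp before the start. It was 1096 bp wide, scored 551 and ranked 4775 of 38186, at percentile 87.5. Its TEAD4 peak (chr5:52283336-52283708) ranked 6941 of 12188, at percentile 43.1, with a centre 231.5 bp from that of TEAD1. The highest TEAD1 score at ITGA2 was nearly the same, 555 at rank 4733, at a site 66.7 kb upstream (chr5:52218209-52218656) with a TEAD4 peak at percentile 71.2. The remaining 8 TEAD1 peaks had no TEAD4 and percentiles from 1.84 to 61.9. Of the 10 peaks, 7 lay upstream, where ITGA1 and PELO are the neighbouring coding genes in RefSeq order, and 3 lay 30.2 to 48.2 kb downstream. The nearest HA-YAP5SA peak was 1.76 Mb away and the nearest YAP peak 1.71 Mb away.

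The ITGA6 locus (start site chr2:173292314) had all of its 7 TEAD1 and 2 TEAD4 peaks downstream of the start. The first 6 TEAD1 peaks lay within 25.7 kb (chr2:173295411-173321100), starting 3.3 kb from the start site, and the last was 53.4 kb away. The highest TEAD1 score, 411 at percentile 80.8, was 11.9 kb downstream (chr2:173303817-173304576) and had no TEAD4 peak, the nearest TEAD4 centre being 2.5 kb away. The TEAD4 peaks lay 9.4 and 22.4 kb downstream at percentiles 1.69 and 34.6, on TEAD1 peaks at percentiles 43.9 and 70.1. ITGA6 was thus the single locus of the 5 whose top TEAD1 peak carried no TEAD4. Over the whole list, 66% of TEAD1 peaks within 2 percentile points of that peak carried TEAD4 (interval 63.6 to 68.4%), so its absence there is common. The top TEAD1 peaks of the other loci had higher percentiles, from 87.6 to 92.3. The peak 3.3 kb from the start (chr2:173295411-173295890) was at percentile 64.6 without TEAD4. The nearest HA-YAP5SA peak was 9.51 Mb away.

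The ITGAV locus (start site chr2:187454790), 14.2 Mb from ITGA6 on the same chromosome, had the fewest TEAD1 and TEAD4 peaks within 100 kb. The intervals of these counts overlap those of every other locus, so that order is not resolved. At ITGAV the nearest TEAD1 peak was 19955.5 bp upstream (chr2:187434542-187435127, percentile 60.9), farther than at any of the other loci, where the nearest lay 0.1 to 3.3 kb from the start. Its highest TEAD1 score, 565 at rank 4584 (chr2:187408929-187409613), was 45.5 kb upstream and carried the one TEAD4 peak of the locus (chr2:187409132-187409360, percentile 31.8). The TEAD4 percentile at this site was 56.2 points below that of TEAD1, a gap as large in 11.5% of all shared sites. The other 3 peaks, 27.9 and 47.8 kb upstream and 51.8 kb downstream, were at percentiles 5.85, 0.301 and 8.8. Outside the window, 161.3 kb downstream, an HA-YAP5SA peak (rank 733 of 847) and a TEAD4 peak (percentile 74.5) lay together.

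Spacing was also compared over the 5 loci. Of the 35 TEAD1 peaks, 27 (77.1%, interval 59.9 to 89.6%) lay within 50 kb of the start, which is 50% of the window, and windows on other start sites were not analysed here. Of the same 35, 25 (71.4%, 53.7 to 85.4%) lay within 10 kb of another TEAD1 peak, beside 46.3% of the whole list. Nearness is mutual between peaks, so they do not count independently. The interval is therefore too narrow and cannot set the 2 shares apart. The share with a near neighbour moves with the number of peaks per window, which was above the mean tile at every locus, and its part in the share was not tested. By locus 8 of 10 were so spaced at ITGA2, 6 of 7 at ITGA6, 5 of 6 at ITGB1, 4 of 5 at ITGAV and 2 of 7 at ITGB4. Upstream peaks made up 23 of the 35 TEAD1 peaks (65.7%, interval 47.8 to 80.9%) and 8 of the 12 TEAD4 peaks (66.7%, 34.9 to 90.1%). Both intervals include 50%, but they treat peaks of the same locus as independent, and the side differed by locus. The TEAD1 peaks upstream were 7 of 10 at ITGA2, 4 of 5 at ITGAV, 0 of 7 at ITGA6, 6 of 7 at ITGB4 and 6 of 6 at ITGB1. The farthest TEAD1 peak inside a window was 75.8 kb away, at ITGB4, and the nearest outside was 102.2 kb away, at ITGA2 (percentile 18.7).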

How the data were processed

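The authors deposited 1 peak list per library, with a chromosome, start, end, name and score for each peak. Bowtie2 and hg19 are named in the submitters' processing notes, and peak names begin with MACS. For the peak caller, version, threshold and control library were not given in the sources used here. The deposited score has no stated scale, so it was used only for ranks and percentiles within a list. Starts in the lists without a header were raised by 1, as in BED files, and are uncertain by 1 bp. Groups followed the sample titles, with 1 library each. Start sites were given with the choice of genes, as hg19 positions. The genes and comparisons were chosen with earlier results of these data known. Peaks named at each locus are the highest-scoring and nearest TEAD1 and TEAD4 peaks, those covering a start and all HA-YAP5SA peaks, and others named were chosen after their values were seen. Peaks shared a site when at least 1 bp overlapped. Shares have exact Clopper-Pearson intervals, and 0 peaks were taken to allow 3. No hg19 annotation was used, so other integrin and adhesion genes were not analysed here. Promoter sequences and gene order are from RefSeq (GRCh38.p14), and the strand of ITGB4 from general knowledge. Counting and overlap were tested on simulated data, where planted peaks were recovered in 20 of 20 simulations. Scripts ran in Python 3.11.15 with SciPy 1.17.1, pandas 2.3.3, NumPy 2.4.6 and matplotlib 3.10.9.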

Additional observations from a re-analysis of the deposited data

How the results depend on the processing

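Of 55 alternative counts, shares and ranks, 38 stayed within 1.5 times the reported count or rank, or within the interval of the reported share. The 38 include YAP and TAZ values of 0, which a smaller window, higher threshold or stricter overlap cannot change. Part of that number was therefore fixed in advance. Of 10 alternative values of a highest percentile, 8 were identical to the reported one. With windows that reached 200 kb to each side of the start, the loci held 64 TEAD1, 19 TEAD4 and 2 HA-YAP5SA peaks. There were still none of YAP or TAZ. TEAD1 peaks were then 20 at ITGA2, 9 at ITGAV, 13 at ITGB4 and 12 at ITGB1, and the highest TEAD1 percentile at ITGB4 was 95.9. With windows that reached 50 kb to each side, ITGB4 held 4 TEAD1 peaks and the highest percentile at ITGA2 was 87.5. With each list limited to scores no lower than its median there were 16 TEAD1 peaks (4 at ITGA2, 2 at ITGAV, 3 at ITGA6, 4 at ITGB4 and 3 at ITGB1) and 5 TEAD4 peaks, and 56.2% of the TEAD1 peaks carried TEAD4, beside 55.1% of the whole TEAD1 list at that threshold. Wider windows and a higher threshold change these counts by their construction. The ITGB4 start site ranked 9 by its TEAD4 minus TEAD1 percentile when percentiles were taken over shared peaks, an alternative chosen after seeing the data. It ranked 1 with an overlap of 50% or centres within 500 bp. With tiles moved by 100 kb, also added afterwards, 3.25% held as many TEAD1 peaks as ITGA2 and 2.82% as many TEAD4 peaks as ITGB4. No paired analysis was possible because each group has 1 library. Depth is unknown for every list, which limits the reading of absent YAP, TAZ and HA-YAP5SA peaks.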
